A study of Bos taurus with 8 samples.

Results

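The NF-kappaB genes of bovine granulosa cells are described here, from the transcription factor subunits to the inhibitors that the pathway induces against itself. The members are the 10 rows of the expression table, of 26804 rows in all, whose symbol is *RELA*, *NFKB1*, *NFKB2*, *RELB*, *NFKBIA*, *NFKBIZ*, *TNFAIP3*, *BIRC3*, *IKBKB* or *TNF*. Every symbol was found. All 10 exceeded the expression threshold in all 8 libraries, so none entered the comparison through a single season.

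Granulosa cells surround the oocyte in the ovarian follicle and make estradiol and inhibin. They were pelleted from the fluid of ovum pick-up (OPU), an ultrasound-guided aspiration of follicles, in non-lactating multiparous beef cows treated with a progesterone device, a GnRH analog and FSH. Summer (August) was represented by replicates 1, 2, 3 and 5 and winter by replicates 1, 3, 4 and 5, a total of 8 libraries, and RNA of 2 cows was pooled per library. By the paper the same cows were aspirated in both seasons, but which cows formed each pool was not stated. The season test did not pair them. No untreated control was part of the design, the age of the cows was not stated, and sources differ on the breed and the winter month. Follicles were aspirated on 1 occasion per season, and an effect of that occasion and of the season itself cannot be told apart. The comparison asks which transcripts differ between hot and cool conditions.

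NF-kappaB is a family of dimeric transcription factors held in the cytoplasm by IkB proteins. When a receptor for TNF, interleukin 1 or a microbial product is engaged, the IkB kinase complex marks IkB for destruction and the dimers enter the nucleus. Among their first targets are genes of their own inhibitors, which close the loop. In the ovary the pathway is studied for the inflammation-like events of ovulation and for the survival of follicle cells.

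The unit throughout is scaled TPM. The deposited TPM (transcripts per 1000000) were set to a total of 1000000 over all genes except the 13 protein-coding mitochondrial genes and then divided by a factor per library from the trimmed mean of M-values (TMM). TPM is a value per transcript length, so levels of different genes can be set side by side. The mitochondrial genes held 50.7% to 87.7% of TPM in the summer libraries and 85.1% to 92.0% in the winter libraries. The paper gives sequencing depth only as an average, not per library. Season was tested with limma on log2(scaled TPM + 1) over 13046 genes, and log2 fold changes are summer minus winter. Equal replicate numbers were not shown to mark the same cows, and p-values measure the spread between pools. The libraries hold granulosa cells by their markers: all 12 listed granulosa genes were expressed, with a summed level of 29523 to 78596 scaled TPM in summer and 14654 to 19896 in winter. Markers of other cells were present too. The summed red blood cell list ran from 39.0 to 99.0 scaled TPM in summer and from 566 to 42430 in winter. In winter replicate 3 that sum, 42430, exceeded the granulosa sum of 18721. The summed epithelial list stood at 650 to 1520 in summer and 1452 to 4239 in winter. *CYP17A1*, the androgen-producing enzyme of theca cells, was listed at 0 in 3 of the 4 libraries of each season, but *INSL3*, another theca product, stood at 87.9 to 259.5 scaled TPM in summer and 58.0 to 449 in winter, and the summed theca list at 218 to 427 and 107 to 579. Leukocyte markers differed strongly. Of 24, 17 passed as lower in summer and 0 as higher at an adjusted p of at most 0.05 (limma, 21 lower and 0 higher at an unadjusted p under 0.05), and their sum ran from 59.1 to 222 scaled TPM in summer and from 569 to 1383 in winter. In bulk samples fewer cells of a type and less RNA per cell cannot be told apart.

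Of the 10 members, 1 was lower in summer at an adjusted p of at most 0.05, *NFKB2*, and none was higher (limma with Benjamini-Hochberg adjustment over all genes, 2 lower and 1 higher at an unadjusted p under 0.05). Over all tested genes 10.2% were lower and 11.0% higher by the same rule, so the count of members is near the background. No member met the rule that adds the study's 2-fold and expression thresholds to the adjusted p, against 12.8% of all tested genes. The fold here was taken from limma on log2(scaled TPM + 1), which compresses low values. The study set its thresholds on a negative binomial model, so its own calls can differ. The log2 fold changes ran from -1.10 to 0.68 with a median of -0.18, and the median over all tested genes was 0.034. The 2-fold rule took 6.15% of all tested genes as higher and 6.67% as lower. By log2 fold change 8 members were below 0 and 2 above, and 52.2% of all tested genes were above 0. This split depended on the scaling, as given at the end.

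**Figure D1:**
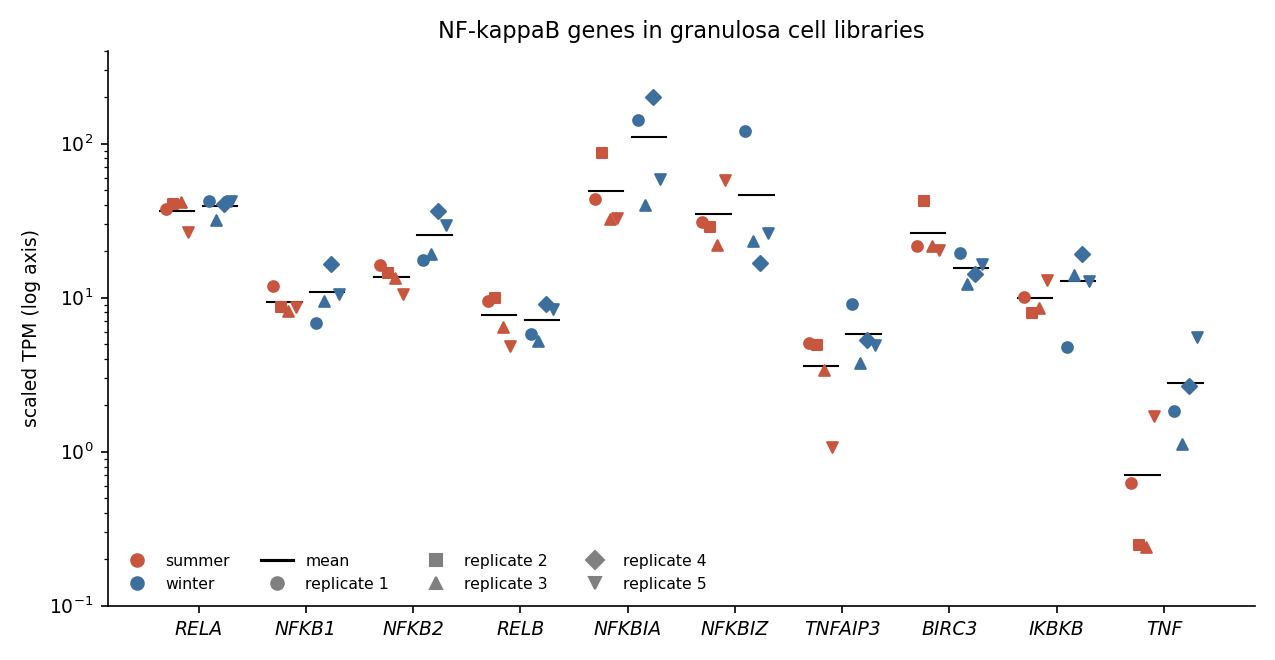
Scaled TPM (vertical log axis) of the 10 NF-kappaB genes in each granulosa cell library, summer in red and winter in blue, with symbols for replicate numbers and a line at the mean of 4 libraries. *RELA* lies between 26.8 and 42.6 in all 8 libraries, while winter libraries of *NFKBIA* spread from 39.8 to 200.1.

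*RELA*, the strongest transactivating subunit and the usual partner of the *NFKB1* product, was the most even member. It stood at 37.8, 40.5, 41.6 and 26.8 scaled TPM in summer (replicates 1, 2, 3 and 5, in that order) and at 42.3, 31.9, 40.7 and 42.6 in winter (replicates 1, 3, 4 and 5). Within each season 3 libraries lay close together and 1 was lower, summer replicate 5 and winter replicate 3, and the seasons overlapped. The means were 36.7 ± 6.78 (SD, n = 4) and 39.4 ± 5.02 (SD, n = 4), a summer level of 0.926 times the winter level with a 95% interval of 0.702 to 1.22 (adjusted p = 0.702, limma).

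*NFKB1*, whose precursor protein gives the DNA-binding partner of *RELA*, had 11.8, 8.66, 8.14 and 8.69 scaled TPM in the summer libraries, in the same order of replicates. In winter it had 6.84, 9.49, 16.5 and 10.6. The winter libraries spread on both sides of the summer values, with the lowest level of all in winter replicate 1 and the highest in winter replicate 4. The fold was 0.901 (95% interval 0.594 to 1.36, adjusted p = 0.729, limma).

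*NFKB2* gives a precursor protein that retains *RELB* in the cytoplasm and is processed to its partner in the noncanonical branch of the pathway. It stood at 16.2, 14.4, 13.4 and 10.5 scaled TPM in summer and at 17.6, 19.1, 36.25 and 29.4 in winter. Every summer library was below every winter library, a pattern that 11.3% of all tested genes showed, with summer replicate 1 and winter replicate 1 close to each other. The means were 13.6 ± 2.39 (SD, n = 4) and 25.6 ± 8.82 (SD, n = 4), for a log2 fold change of -0.82, a standard error of 0.25 and a fold of 0.567 (95% interval 0.384 to 0.836, adjusted p = 0.0426, limma). The call is narrow. Leaving out any 1 of the summer libraries, or winter replicate 4 or 5, ended it, at adjusted p of 0.0669 to 0.111, and the log2 fold change without winter replicate 4 was -0.64. It was also lost when the mitochondrial share of each library was a covariate (log2 fold change -0.997, adjusted p = 0.148). The summed leukocyte markers given above were higher in every winter library than in any summer library, as *NFKB2* was. So were the fibroblast and matrix sum (184 to 339 scaled TPM in summer, 378 to 1158 in winter) and the red blood cell sum. The granulosa sum was lower in every winter library than in any summer library. What part any of these had in the *NFKB2* difference was not tested.

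*RELB*, the partner of the *NFKB2* product, did not follow it. Its levels were 9.50, 9.98, 6.41 and 4.86 scaled TPM in summer and 5.76, 5.25, 9.02 and 8.47 in winter. Each season held 2 libraries above 8 and 2 libraries below 7 scaled TPM. The fold was 1.06 (95% interval 0.681 to 1.64, adjusted p = 0.874, limma).

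Because the ratio of 2 genes within a library does not depend on how libraries are scaled to each other, the subunits were also set against one another in the deposited TPM. *RELA* held 54.4% ± 4.09 (SD, n = 4) of the summed TPM of the 4 subunits in summer and 48.3% ± 7.67 (SD, n = 4) in winter. *NFKB2* held 20.3% ± 1.01 and 30.3% ± 4.73, *NFKB1* 14.1% ± 2.75 and 12.9% ± 2.97, and *RELB* 11.2% ± 2.19 and 8.51% ± 0.663. The ratio of *NFKB2* to *RELB* was 1.70, 1.44, 2.10 and 2.15 in summer replicates 1, 2, 3 and 5. It was 3.06, 3.64, 4.02 and 3.47 in winter replicates 1, 3, 4 and 5. The lowest winter ratio thus exceeded the highest summer ratio. The ratio of *NFKB2* to *NFKB1* was likewise apart, at 1.21 to 1.66 in summer and 2.02 to 2.79 in winter. Its ratio to *RELA* overlapped. These ratios are descriptions and were not tested. Of all pairs of tested genes above 0 in every library, 23.0% were likewise apart between seasons.

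*NFKBIA*, the IkB-alpha protein that holds *RELA* dimers in the cytoplasm and is resynthesized after each pulse of activity, had the highest mean of the members in both seasons. By median it came second in summer, at 38.4 against 39.1 for *RELA*. *NFKBIA* stood at 43.9, 86.5, 32.2 and 32.9 scaled TPM in summer and at 142, 39.8, 200.1 and 58.8 in winter. Winter replicates 1 and 4 were above every other library, while winter replicates 3 and 5 lay within the summer range. The means were 48.9 ± 25.7 (SD, n = 4) and 110.2 ± 74.6 (SD, n = 4), and the fold of 0.501 had a 95% interval of 0.239 to 1.05 (adjusted p = 0.165, limma). Without winter replicate 4 the log2 fold change moved from -0.997 to -0.62.

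Winter replicate 4 stood apart from the other winter libraries in more than *NFKBIA*. It was the highest of the 4 for 5 of the 10 members, *NFKB1*, *NFKB2*, *RELB*, *NFKBIA* and *IKBKB*, and the lowest for *NFKBIZ*. Winter replicate 3 was an extreme as well. It was the lowest of the 4 for 6 members, *RELA*, *RELB*, *NFKBIA*, *TNFAIP3*, *BIRC3* and *TNF*, and the highest for 0. *IL1B*, the interleukin that activates the pathway, had 755 scaled TPM in winter replicate 4 against 9.86 to 83.7 in the other winter libraries. *CXCL8*, a neutrophil chemokine and target of the pathway, had 954 against 5.63 to 54.3. Both genes were chosen after their values were seen. Of the leukocyte markers, the neutrophil and monocyte genes *S100A8* (278) and *S100A9* (448) were highest in this library, whereas the T cell gene *CD3E* (2.96) was at its lowest level among the winter libraries. These markers were also chosen after their values were seen, and not every other marker was at its highest or lowest here. The macrophage gene *CSF1R* was at 2.80 here against 0.849 to 3.71 in the other winter libraries. The B cell gene *CD79A* was at 4.01 against 2.77 to 15.5.

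*NFKBIZ*, a nuclear IkB protein that assists transcription of a subset of targets, peaked in another library. Its levels were 30.9, 28.8, 21.8 and 58.0 scaled TPM in summer and 119.9, 23.1, 16.7 and 26.3 in winter. Winter replicate 1 was more than 4 times any other winter library, and the rest of the winter libraries lay below 3 of the 4 summer libraries. The fold of 0.976 had a wide interval, 0.435 to 2.19 (adjusted p = 0.970, limma), and the log2 fold change of -0.035 had no stable sign. It turned to 0.57 without winter replicate 1 (adjusted p = 0.236, limma), to 0.15 without summer replicate 3 and to 0.023 without summer replicate 2.

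*TNFAIP3*, a ubiquitin-editing enzyme that shuts off signaling at receptor complexes, was low. It had 5.08, 4.91, 3.40 and 1.07 scaled TPM in summer and 9.03, 3.78, 5.30 and 4.94 in winter. Winter replicate 1 was the highest and summer replicate 5 the lowest, and the remaining 6 libraries lay between 3.40 and 5.30. The fold was 0.654 (95% interval 0.362 to 1.18, adjusted p = 0.283, limma).

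*BIRC3*, a ubiquitin ligase recruited to TNF receptor complexes that protects cells from death and is itself a target of NF-kappaB, had the most positive log2 fold change among the members. It stood at 21.6, 42.0, 21.6 and 20.5 scaled TPM in summer and at 19.3, 12.3, 14.1 and 16.5 in winter. Every summer library lay above every winter library, as for 13% of all tested genes, but 3 summer libraries were close to winter replicate 1. The means were 26.4 ± 10.4 (SD, n = 4) and 15.6 ± 3.05 (SD, n = 4), and the fold of 1.60 (95% interval 1.09 to 2.37) did not pass the adjusted threshold (adjusted p = 0.0802, limma). Without summer replicate 2 the log2 fold change moved from 0.68 to 0.44 (adjusted p = 0.190). *BIRC2*, its paralog and neighbour in the genome, had 14.2 to 16.7 scaled TPM in summer and 9.71 to 12.9 in winter (adjusted p = 0.227), and reads that both genes share cannot be separated in this table.

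*IKBKB*, the kinase subunit that phosphorylates IkB in the canonical branch, had 10.1, 7.93, 8.58 and 13 scaled TPM in summer and 4.75, 14.1, 19.2 and 12.8 in winter. Winter replicate 1 was the lowest library of all and winter replicate 4 the highest. The fold was 0.860 (95% interval 0.495 to 1.49, adjusted p = 0.705, limma).

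*TNF*, the cytokine that gives the pathway its best known signal, had the lowest mean of the members in both seasons. It had 0.627, 0.248, 0.241 and 1.71 scaled TPM in summer and 1.84, 1.12, 2.67 and 5.57 in winter. Only summer replicate 5 reached into the winter range. On the log2(scaled TPM + 1) scale, which compresses differences of such low values, the log2 fold change was -1.10 with a standard error of 0.39 (adjusted p = 0.0681, limma). The adjusted p (limma) was 0.0491 without summer replicate 5 and 0.0416 without winter replicate 3. With any other library left out it rose, to between 0.0846 and 0.160. Without winter replicate 5 the log2 fold change was -0.80. The summed leukocyte, fibroblast and matrix, and red blood cell markers moved the same way, and their part was not tested.

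**Figure D2:**
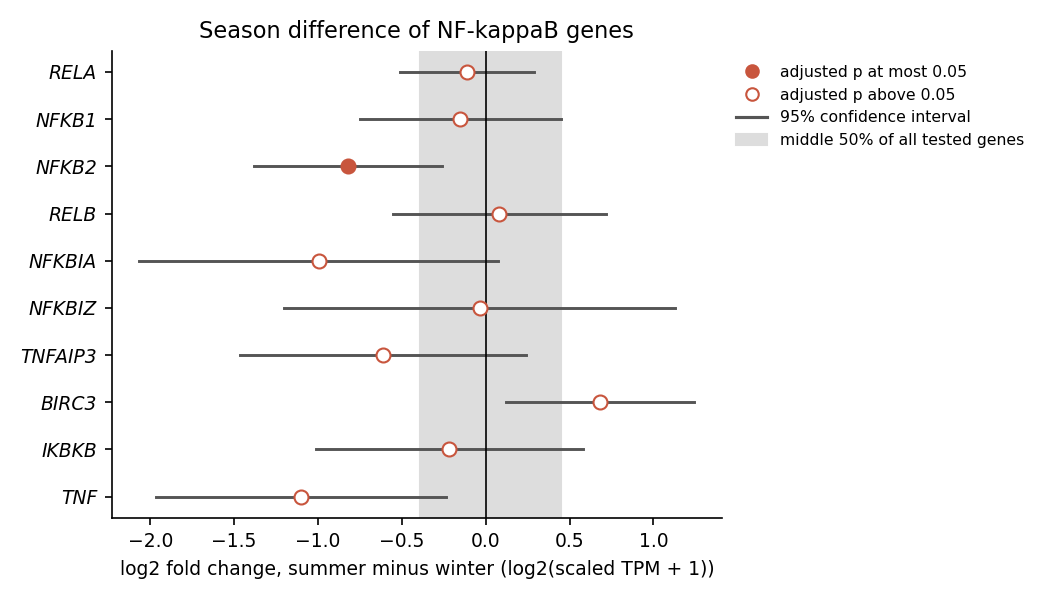
Log2 fold change, summer minus winter, of each NF-kappaB gene (points) with its 95% confidence interval from limma (lines), 4 libraries per season. Only *NFKB2* (filled, -0.82) passed an adjusted p of 0.05, and the grey band holds the middle 50% of all tested genes, -0.39 to 0.45.

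The order of mean levels was similar in both seasons, from *NFKBIA* at the top to *TNFAIP3* and *TNF* at the bottom. In summer *NFKBIA*, *RELA*, *NFKBIZ* and *BIRC3* formed an upper group, with overlapping ranges between neighbours, and all lay above *NFKB2* with no overlap between *BIRC3* (20.5 to 42.0) and *NFKB2* (10.5 to 16.2). In winter the ranges of all neighbours in the order overlapped, and *NFKB2* stood above *BIRC3*. Relative to all tested genes, the summer mean of *NFKBIA* was above 81.8% of them and its winter mean above 91.4%, while *TNF* was above 7.47% and 22.5%.

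Over all 45 pairs of members, the ratio within a library did not overlap between seasons for 8 pairs, or 17.8%, and over all pairs of tested genes above 0 in every library this share was 23.0%. The separation of pairs is thus no more common among the members than in the background. *BIRC3* took part in 5 of the 8 pairs. The ratio of *NFKBIA* to *BIRC3* was 1.49 to 2.06 in summer and 3.24 to 14.2 in winter. The ratio of *BIRC3* to *NFKB2* was 1.33, 2.92, 1.61 and 1.96 in summer replicates 1, 2, 3 and 5 and 1.10, 0.642, 0.389 and 0.560 in winter replicates 1, 3, 4 and 5. *BIRC3* was the more abundant of both genes in every summer library and in winter replicate 1. *NFKBIZ* and *IKBKB* were in no such pair.

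**Figure D3:**
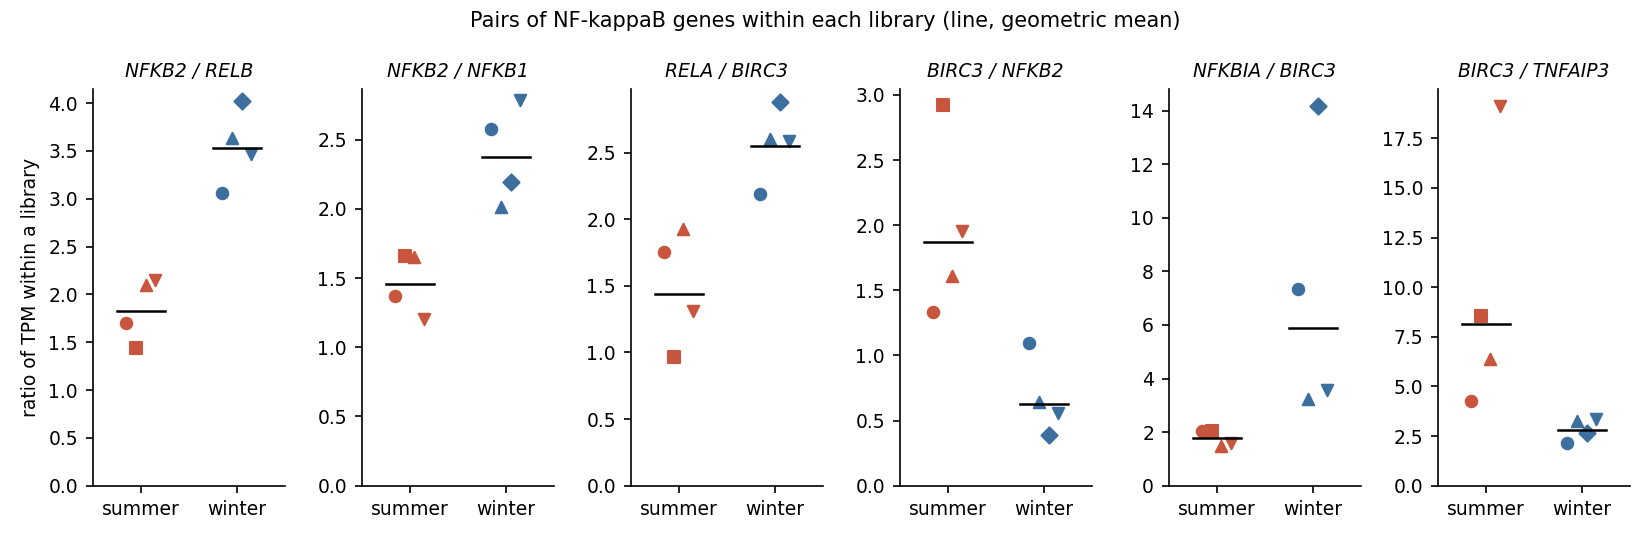
Ratio of deposited TPM of the named genes within each library (vertical linear axes from 0) for 6 of the 8 pairs whose seasons did not overlap, summer in red and winter in blue, with the symbols of the plot of levels and a line at the geometric mean of 4 libraries. The ratio of *NFKB2* to *RELB* is at most 2.15 in summer and at least 3.06 in winter.

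Of 68 other genes of the pathway, 62 were tested, and 8 were lower and 1 higher in summer at an adjusted p of at most 0.05 (limma), with a median log2 fold change of -0.25. The lower genes were thus 12.9% of those tested and the higher gene 1.61%, against 10.2% and 11.0% of all tested genes. Of the tested pathway genes 40 had a log2 fold change below 0 and 22 above. The lower genes numbered 4 without summer replicate 1 or summer replicate 2, 5 without winter replicate 5, and 0 with the mitochondrial share as a covariate, a fit in which 192 of all 13046 genes were lower and 107 higher.

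Among the other subunits and IkB proteins, 1 of 5 was lower. *NFKBID*, a nuclear IkB protein, stood at 1.99, 1.14, 1.42 and 2.75 scaled TPM in summer and at 7.84, 2.64, 8.91 and 5.56 in winter (log2 fold change -1.29, adjusted p = 0.0270). Summer replicate 5 was just above winter replicate 3. Of 26 tested kinases and adaptors 2 were lower. *IRAK1*, a kinase of interleukin 1 and Toll-like receptor signaling, had 22.5 to 28.7 scaled TPM in summer and 34.5 to 45.2 in winter (log2 fold change -0.64, adjusted p = 0.0176). Neither partner of *IKBKB* in the kinase complex passed, *CHUK* (log2 fold change 0.49, adjusted p = 0.104) and *IKBKG* (-0.34, adjusted p = 0.303).

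The ubiquitin editors and ligases held the pathway gene with the smallest adjusted p. *TNIP1*, a partner of the *TNFAIP3* protein that restrains signaling, stood at 19.99, 31.3, 25.8 and 19.0 scaled TPM in summer and at 58.0, 42.8, 67.1 and 55.8 in winter, with no overlap (log2 fold change -1.20, standard error 0.20, adjusted p = 0.00362, limma). *RBCK1*, a subunit of the complex that builds linear ubiquitin chains, had 16.5 to 20.04 scaled TPM in summer and 24.9 to 32.8 in winter (log2 fold change -0.60, adjusted p = 0.0283). *RNF11*, which works with *TNFAIP3* to end signaling, was the only higher gene, at 38.1 to 66.9 scaled TPM in summer and 20.1 to 38.8 in winter (log2 fold change 0.81, adjusted p = 0.0331). These 3 were those that passed of 17 tested.

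Of 9 tested receptors 2 were lower. *IL1R1*, the signaling receptor of interleukin 1, had 0.263, 1.34, 1.2996 and 2.82 scaled TPM in summer and 10.2, 3.40, 8.99 and 5.89 in winter (log2 fold change -1.76, adjusted p = 0.0129). *TNFRSF1B*, a receptor of TNF, had 3.31 to 6.50 and 9.16 to 12.99 (log2 fold change -0.93, adjusted p = 0.0248). The other TNF receptor, *TNFRSF1A*, did not pass (log2 fold change -0.24, adjusted p = 0.677). Of 5 tested ligands 1 was lower, *LTB*, the lymphotoxin subunit and neighbour of *TNF* in the genome, at 2.55 to 15.7 scaled TPM in summer and 15.5 to 62.8 in winter (log2 fold change -2.23, adjusted p = 0.0108). *TNFSF11* was listed at 0 in all 8 libraries, as was its receptor *TNFRSF11A*.

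Of 23 tested target genes 4 were lower and none higher (limma, 5 lower and 2 higher at an unadjusted p under 0.05). The lower genes were 17.4% of those tested, against 10.2% of all tested genes, of which 11.0% were higher. The 2 targets higher at the unadjusted p were *IER3* (log2 fold change 1.47, adjusted p = 0.0521, limma) and *TNFAIP6* (1.82, adjusted p = 0.103). The median log2 fold change of the targets was -0.53. *CCL5*, a chemokine of lymphocytes, stood at 2.62, 3.99, 7.07 and 6.04 scaled TPM in summer and at 34.4, 28.0, 10.4 and 44.3 in winter (log2 fold change -2.25, adjusted p = 0.00554). *BCL2A1*, a survival gene of the BCL2 family, had 0.817 to 4.95 and 3.84 to 46.3 (adjusted p = 0.0272). *TAP1*, the peptide transporter of antigen presentation, had 6.45 to 9.71 and 12.3 to 29.8 (log2 fold change -1.09, adjusted p = 0.0226). *SOD2*, the mitochondrial superoxide dismutase, had 48.0 to 71.3 and 59.1 to 238 (log2 fold change -1.06, adjusted p = 0.0466). The count of lower targets was 1 without summer replicate 1, 2 without summer replicate 2, summer replicate 5 or winter replicate 5, and 0 with the mitochondrial share as a covariate, the fit with few calls over all genes.

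**Figure D4:**
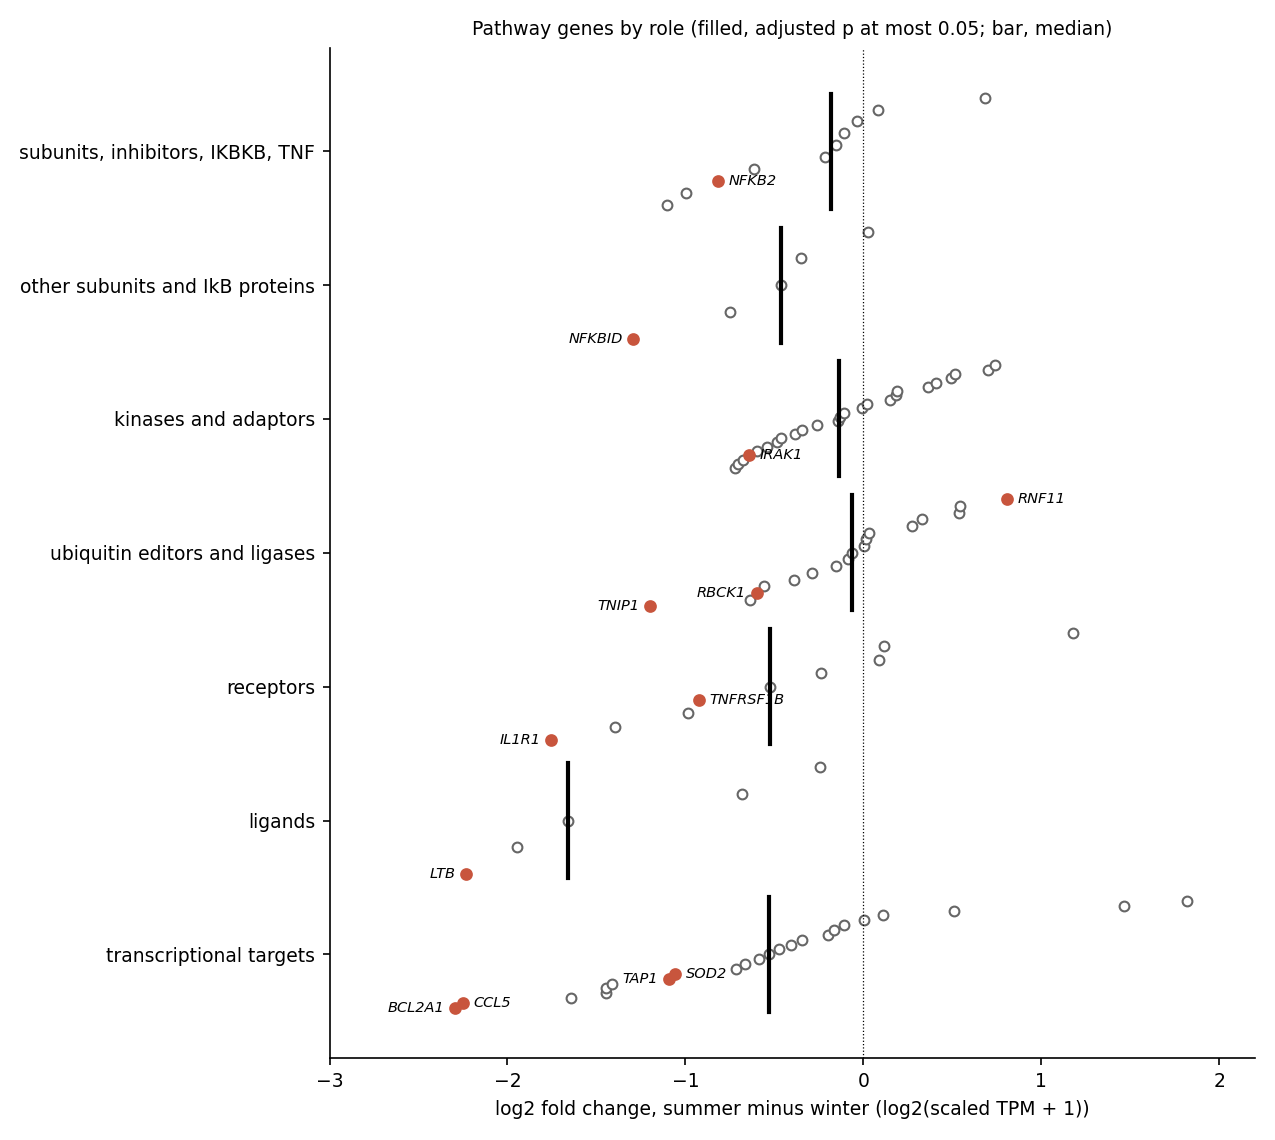
Log2 fold change, summer minus winter (horizontal axis), of the tested NF-kappaB pathway genes in rows by role, 4 libraries per season, with 1 kinase or adaptor gene left out of the points. Filled and named points passed an adjusted p of 0.05 by limma, and the bar is the median over all tested genes of the row, -0.18 for the subunits and feedback inhibitors and -0.53 for the targets.

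Several of these genes are expressed by leukocytes, among them *LTB*, *CCL5* and *BCL2A1*, and the leukocyte markers were lower in summer, with a median log2 fold change of -2.21. Granulosa markers went the other way, with 8 of 12 higher and a median of 1.11. Some markers of other cells were also lower in summer, with 5 of 8 fibroblast and matrix genes (median -1.52, 1 higher), 4 of 8 epithelial genes (median -1.05, 1 higher) and 3 of 3 tested red blood cell genes (median -6.26). What part any of these had in the pathway genes was not tested.

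The direction of most members depended on how the libraries were scaled to each other. The tested genes as a whole shifted to a median of 0.89 on the deposited TPM, and there 9 members were above 0 and only *TNF* (-0.06) below, and *RELA* (1.22, adjusted p = 0.0231), *RELB* (0.93, adjusted p = 0.0263), *NFKBIZ* (1.24, adjusted p = 0.0262) and *BIRC3* (1.72, adjusted p = 0.00229) were higher. Set against that median, *NFKB2* was at -0.38, *NFKBIA* at -0.42, *TNFAIP3* at -0.47 and *TNF* at -0.95, and *BIRC3* at 0.83. Without the TMM factor the median of all genes was 0.28, and all 10 members lay on the same side of that median as with scaled TPM, as they did under quantile normalization. On the deposited TPM 8 did, the exceptions being *RELA* and *NFKBIZ*.

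**Figure D5:**
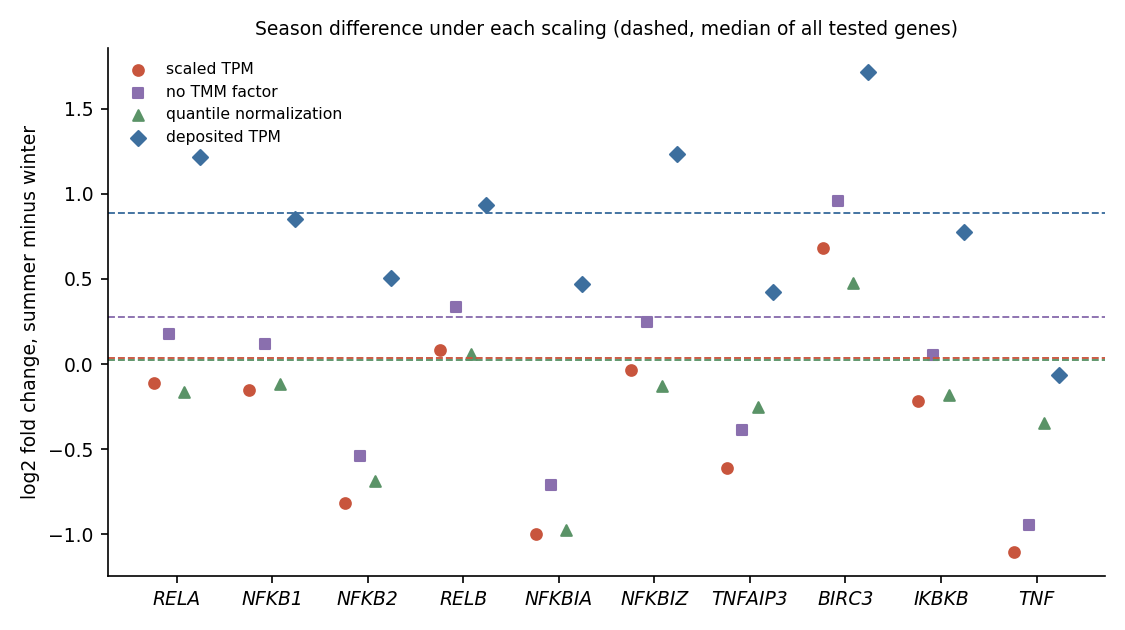
Log2 fold change, summer minus winter (vertical axis), of each NF-kappaB gene under 4 scalings of the same libraries, with dashed lines at the median of all tested genes under each. *BIRC3* lies above its dashed line and *NFKB2*, *NFKBIA*, *TNFAIP3* and *TNF* below theirs under all 4 scalings.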

How the data were processed

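Polyadenylated RNA of 8 granulosa cell libraries was sequenced in paired ends. The authors computed the deposited TPM. Their methods name CLC Genomics Workbench for trimming, mapping and TMM normalization, whereas the submitters' processing notes name Bowtie2 (2.2.2), DESeq2 and the build ARS-UCD1.2. Each deposited TPM column sums to 1000000, so no TMM factor is left in it.

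Scaled TPM was computed with 30% of M and 5% of A trimmed at each end, unweighted. A gene was tested when its zFPKM exceeded -3 in all 4 libraries of at least 1 season, with limma 3.58.1 (R 4.3.3; lmFit, eBayes with trend, season as the only term), and p-values were adjusted over all 13046 genes. The procedure was tested on simulated data. Members and lists were chosen with earlier results of these data known. All members are named, and up to 5 genes of each pathway list and direction that passed the adjusted p, except 1 that is counted but not reported here by name. Alternatives covered scaling, pseudocount, filter, variance model, replicate block, a covariate and each library left out. The symbols of all 10 members matched RefSeq on ARS-UCD2.0, which was used only for neighbouring genes. Figures were drawn with matplotlib 3.10.9.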

Additional observations from a re-analysis of the deposited data

Results flagged for a closer look

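In 3 of the 20 groups of 4 libraries examined, 10 members in 2 seasons, the highest library stood far from the other 3 by Dixon's criterion. Chance meets it in about 1 of 20 groups when values are normally distributed. The criterion was applied to scaled TPM without a log, so that rate need not hold here and no excess is claimed. *BIRC3* in summer replicate 2 was 42.0 scaled TPM against 20.5 to 21.6 in the other summer libraries. *NFKBIZ* in winter replicate 1 was 119.9 scaled TPM against 16.7 to 26.3. *NFKB1* in summer replicate 1 was 11.8 scaled TPM against 8.14 to 8.69. The 3 values came from 3 different libraries.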

How the results depend on the processing

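No member was called with the 2-fold rule under any alternative, except on the deposited TPM, where 3 were called higher (42.4% of all tested genes were) and 0 lower, and without summer replicate 5 or winter replicate 3, where 1 was called lower. Past the adjusted p, counts of members higher and lower were 4 and 0 on the deposited TPM and 1 and 0 without the TMM factor, where 61.0% and 23.1% of all tested genes were higher, and 0 were lower without a filter, without a trend or with the mitochondrial share as covariate. Pathway genes higher and lower numbered 29 and 0 on the deposited TPM, 9 and 5 without the TMM factor, and 0 and 0 with the covariate. Higher pathway genes were 3 with a minimum of 1 scaled TPM, 3 with the replicate block, 2 with a pseudocount of 0.1, and 0 under quantile normalization, without a filter or without a trend. Targets higher and lower were 3 and 0 on the deposited TPM, 2 and 2 without the TMM factor, 0 and 0 with the covariate and 0 and 2 without a filter, and 1 was higher with the replicate block and with the minimum of 1. With each library left out in turn, members called lower ranged from 0 to 1, members past the adjusted p from 0 to 0 higher and 0 to 2 lower, pathway genes from 0 to 2 and 4 to 9, and targets from 0 to 2 and 1 to 6.

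Log2 fold changes turned positive on the deposited TPM for *NFKB1* (0.85), *NFKB2* (0.51), *RELA* (1.22), *NFKBIA* (0.47), *NFKBIZ* (1.24), *TNFAIP3* (0.42) and *IKBKB* (0.78). Without the TMM factor they turned for *NFKB1* (0.12), *RELA* (0.17), *NFKBIZ* (0.25) and *IKBKB* (0.051), and with the covariate for *NFKBIZ* (0.097) and *RELB* (-0.23). With a library left out the range crossed 0 for *NFKB1* (-0.33 to 0.057), *RELA* (-0.21 to 0.029), *RELB* (-0.048 to 0.25), *NFKBIZ* (-0.36 to 0.57) and *IKBKB* (-0.59 to 0.015). The cause was not tested.

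With the replicate number as a block, 1 member was lower and 0 were higher, as without it. Deviations from the season mean correlated at 0.040, 0.16 and 0.11 for the 3 shared numbers. Not all of these exceed 0.1 and no label ties a number to the same cows, so the numbers were not taken as pairs, although 5 of 6 such libraries were closest to their own number, a hint from the data. Depth per library is unknown, which limits the low values of *TNF* most.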
